A study of Homo sapiens with 6 samples.

Results

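The γH2AX peaks of human chromosome 19 are described here across 4 peak lists from DLD1 cells. They are all peaks that the lists place on the assembled chromosome, and there were 1245 of them among 12579 peaks on all chromosomes and contigs. DLD1 is an established human colorectal cancer cell line. It was used as wild type (WT, UNG+/+) or as a UNG knockout (KO, UNG-/-), and cells of each genotype were exposed to pemetrexed, to cisplatin or to no drug. γH2AX was mapped by chromatin immunoprecipitation and sequencing (ChIP-seq) with an antibody against the phosphorylated histone. There was 1 library in each of the 6 groups, and the 4 drug-treated libraries have the peak lists used here. Untreated cells are not analysed here, and the sources used here give neither drug doses nor times, nor whether the knockout is 1 clone.

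γH2AX is the histone variant H2AX after phosphorylation by the kinases that respond to DNA damage. The mark spreads along the chromatin beside a double strand break, and it also forms at stalled replication forks. UNG is the glycosylase that cuts uracil out of DNA and so opens base excision repair. Pemetrexed is an antifolate that blocks thymidylate synthesis and so raises the incorporation of uracil into DNA, whereas cisplatin forms platinum crosslinks between bases. Chromosome 19 is the most gene-dense human chromosome, is rich in G and C, and carries large clusters of zinc finger genes. Chromosome arms are the stretches on either side of the centromere, the attachment site of the spindle.

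Each list gives a chromosome, a start and an end on hg18 and nothing else, so a peak has a place and a width but no height. Read depth, the control library and the calling threshold are unknown, and all of them can change the number and width of peaks. With 1 library per group there is no replicate spread, so no test of a condition was made. The 95% intervals cover counting error only and treat neighbouring peaks as independent, which makes them too narrow. More marked cells and more mark per cell cannot be told apart in these bulk libraries.

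The 4 lists held very different numbers of peaks on chromosome 19. The WT pemetrexed list had 30, the WT cisplatin list 123, the KO cisplatin list 341 and the KO pemetrexed list 751. The chromosome therefore took 3.25% of the WT pemetrexed list (exact binomial interval 2.20 to 4.60%), 6.81% of the WT cisplatin list (5.69 to 8.07%), 7.46% of the KO cisplatin list (6.72 to 8.26%) and 14.2% of the KO pemetrexed list (13.3 to 15.2%). With peaks at most 100 kb apart joined, the order changed, with 5.496% for WT cisplatin, 4.98% for KO pemetrexed, 3.94% for KO cisplatin and 2.81% for WT pemetrexed. Chromosome 19 makes up 2.25% of the span between the first and last covered positions of the 24 chromosomes. In peaks per Mb, the KO pemetrexed list had 11.8 on chromosome 19 and 1.64 on all other chromosomes. The KO cisplatin list had 5.37 and 1.53, the WT cisplatin list 1.94 and 0.609, and the WT pemetrexed list 0.473 and 0.321.

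After pemetrexed, KO cells had 25.03 times as many chromosome 19 peaks as WT cells (exact interval 17.4 to 37.4), and the same ratio over all other chromosomes was 5.10 (4.75 to 5.49). After cisplatin the KO over WT ratio was 2.77 on chromosome 19 (2.25 to 3.44) and 2.51 elsewhere (2.37 to 2.66). The genotypes were thus much farther apart on this chromosome after pemetrexed than after cisplatin, and the cisplatin ratio overlapped that of the rest of the genome within counting error. Within KO cells the pemetrexed list had 2.202 times as many chromosome 19 peaks as the cisplatin list (1.94 to 2.51), against 1.07 elsewhere (1.03 to 1.12). Within WT cells the order was the opposite, with a pemetrexed over cisplatin ratio of 0.244 on chromosome 19 (0.158 to 0.366) and 0.527 elsewhere (0.485 to 0.572). Other gene-dense chromosomes had similar drug ratios in KO cells, 2.12 on chromosome 17, 1.98 on chromosome 16 and 1.79 on chromosome 22. In WT cells the ratios of these 3 were 0.252, 0.529 and 0.411, so chromosome 17 was close to chromosome 19. With peaks at most 10 kb apart joined, the chromosome 19 KO over WT ratio after pemetrexed fell to 13.7. It fell to 2.50 with those at most 100 kb apart joined. The KO drug ratio there fell to 1.37 with the first joining and turned to 0.545 with the second. The ratios given above for other chromosomes count single peaks, so they are not the comparison for these values. After the first and second joining, the chromosome held 11.3% and 4.98% of the KO pemetrexed list. Its shares were lower in the WT pemetrexed list (3.10% and 2.81%) and in the KO cisplatin list (6.72% and 3.94%). Each joined ratio of chromosome 19 was therefore above the same ratio over the whole joined lists.

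The arms were taken as the sides of the longest stretch of the chromosome without a peak of any list, 8.79 Mb between positions 23977343 and 32769802. By general knowledge the centromere lies in this stretch. The short arm then spans 23.7 Mb and the long arm 30.9 Mb of covered sequence, so the short arm makes up 43.4% of both. On the short arm lay 73.2% of KO pemetrexed peaks (550 of 751, interval 69.9 to 76.4%), 58.4% of KO cisplatin peaks (199 of 341, 52.9 to 63.6%), 54.5% of WT cisplatin peaks (67 of 123, 45.2 to 63.5%) and 36.7% of WT pemetrexed peaks (11 of 30, 19.9 to 56.1%). Counted by single peaks, the KO pemetrexed list leaned most to the short arm. The interval of the WT pemetrexed list includes an even spread by length. With peaks at most 100 kb apart joined, the order changed. The short arm share was then 54.5% for KO cisplatin, 51.7% for KO pemetrexed, 50% for WT cisplatin and 29.2% for WT pemetrexed.

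Densities make the same difference visible. The KO pemetrexed list had 23.2 peaks per Mb on the short arm (Poisson interval 21.3 to 25.2) and 6.50 on the long arm (5.64 to 7.47). The KO cisplatin list had 8.38 (7.26 to 9.63) and 4.59 (3.87 to 5.42). In the WT cisplatin list the densities were 2.82 (2.19 to 3.58) and 1.81 (1.37 to 2.35), and in the WT pemetrexed list 0.463 (0.231 to 0.829) and 0.615 (0.370 to 0.960). The short arm was the denser one in 3 lists with intervals apart in both KO lists, while in the WT pemetrexed list the intervals of the arms overlapped.

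**Figure D1:**
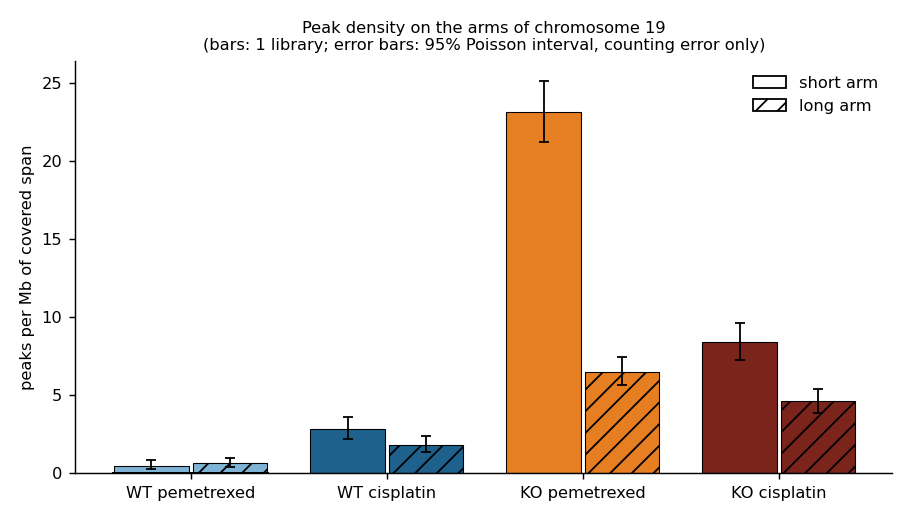
Peaks per Mb of covered span (y axis) on the short arm (plain bars) and long arm (hatched bars) of chromosome 19 in each list, with 95% Poisson intervals that cover counting error only. The tallest bar is the short arm in the KO pemetrexed list, 23.2 peaks per Mb against 6.50 on the long arm.

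The genotype ratio after pemetrexed differed between the arms. KO cells had 50 times as many pemetrexed peaks as WT cells on the short arm (550 against 11, interval 27.7 to 100.8) and 10.6 times as many on the long arm (201 against 19, 6.60 to 17.9). The short arm ratio over the long arm ratio, as a conditional odds ratio, was 4.72 (exact interval 2.09 to 11.2). After cisplatin the KO over WT ratios were 2.97 on the short arm and 2.54 on the long arm, and the corresponding odds ratio was 1.17 (0.756 to 1.81), an interval that includes equal ratios. Within KO cells, pemetrexed over cisplatin was 2.76 on the short arm and 1.42 on the long arm (odds ratio 1.95, 1.48 to 2.58). Within WT cells it was 0.164 and 0.339 (odds ratio 0.486, 0.192 to 1.18). These arm ratios count single peaks. With peaks at most 100 kb apart joined, the short arm share was 51.7% for KO pemetrexed and 54.5% for KO cisplatin. The drug contrast between the arms in KO cells thus did not keep its direction. Without the first 5 Mb, a division chosen after the counts had been seen, the short arm share was 54.7% for KO pemetrexed and 47.6% for KO cisplatin. It was 40.4% for WT cisplatin and 34.5% for WT pemetrexed. The 43.4% of the span given above includes the first 5 Mb, so it is not the even spread for these shares.

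Along the chromosome, peaks were placed by midpoint into 64 windows of 1 Mb counted from position 1. No list had a peak in 14 of them. A KO cisplatin peak was present in 48 windows (51.1% of 2992 windows over all chromosomes held one), a KO pemetrexed peak in 39 (23.7%), a WT cisplatin peak in 35 (33.4%) and a WT pemetrexed peak in 19 (24.4%). The KO pemetrexed peaks were the more gathered of the KO lists: 7 windows held 50% of them, against 13 windows for KO cisplatin. The counts were 9 windows for WT cisplatin and 5 for WT pemetrexed, whose list is short.

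**Figure D2:**
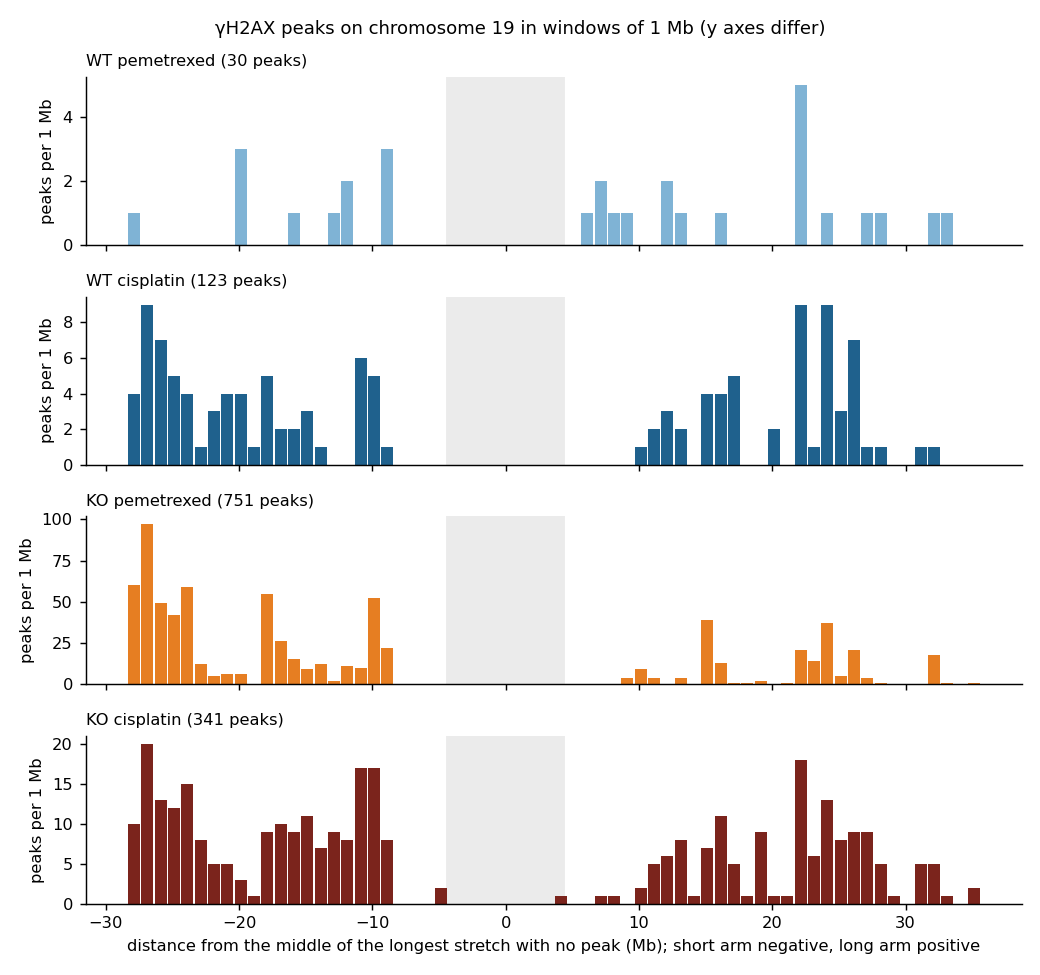
Number of peaks in each 1 Mb window (y axis, different scale in each panel) against the distance in Mb from the middle of the longest stretch with no peak, which is shaded. The KO pemetrexed panel reaches 97 peaks near the tip of the short arm, and the KO cisplatin panel, which reaches 20, is flatter along both arms.

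The tip of the short arm was the densest part of the KO pemetrexed list. The first 5 windows (1 to 5000000) held 60, 97, 49, 42 and 59 KO pemetrexed peaks in order from the tip, together 307 of 751 (40.9%). In the same windows the KO cisplatin list had 10, 20, 13, 12 and 15 peaks, together 70 of 341 (20.5%). The WT cisplatin list had 4, 9, 7, 5 and 4 peaks, together 29 of 123 (23.6%). The WT pemetrexed list had 1 peak in the first window and 0 in the next 4, where 3 counts would be 10% of that list. All 5 windows thus held peaks in 3 lists, with the largest numbers in KO pemetrexed. The WT pemetrexed list has only 30 peaks on the chromosome, so its 1 peak here does not show that the tip lacks them.

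Past the tip the KO pemetrexed peaks thinned out and returned in separate blocks. The 5 windows from 5000001 to 10000000 held 29 of them in all, with 0 in the last. The windows from 10000001 to 12000000 held 81, of which 55 were in the first, and those from 18000001 to 20000000 held 74. Between these blocks, from 12000001 to 18000000, the KO pemetrexed and KO cisplatin lists were close, with 59 and 61 peaks. The KO cisplatin list had 22 peaks in the first of these stretches, 19 in the block from 10000001 and 25 in the block from 18000001. Its numbers per window therefore varied less along the arm than those of KO pemetrexed.

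Toward the centromere the lists emptied abruptly. From 20000001 to 24000000 the only peaks were 2 of the KO cisplatin list, in the last window, and the second longest stretch without a peak, 4.37 Mb from 19602063 to 23974960, lies there. On the other side, the 5 windows from 32000001 to 37000000 held 4 WT pemetrexed and 3 KO cisplatin peaks, and 0 KO pemetrexed and 0 WT cisplatin peaks. The third longest empty stretch, 1.92 Mb, ran from 57144555 to 59060514 on the long arm. How much of these stretches could be mapped by sequencing reads was not tested.

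The long arm had fewer and lower KO pemetrexed blocks. The window from 43000001 to 44000000 held 39 peaks of KO pemetrexed, 7 of KO cisplatin, 4 of WT cisplatin and 0 of WT pemetrexed. The window from 52000001 to 53000000 held 37, 13, 9 and 1 in the same order. In the window from 50000001 to 51000000 the KO lists were nearly level, with 21 KO pemetrexed and 18 KO cisplatin peaks, and it was the top window of the WT pemetrexed list (5 of 30) and tied for the top of the WT cisplatin list (9 of 123). From 45000001 to 50000000 the KO cisplatin list led, with 17 peaks against 5 of KO pemetrexed, 7 of WT cisplatin and 0 of WT pemetrexed. Near the long arm end, the window from 60000001 to 61000000 held 18 KO pemetrexed and 5 KO cisplatin peaks.

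Windows of at least 20 KO pemetrexed peaks, a threshold chosen after the counts had been seen, numbered 13 on chromosome 19 (2.54% of all windows of the genome reached it, 76 in all). Of these, 9 lay on the short arm and 4 on the long arm, and they held 580 of the 751 KO pemetrexed peaks (77.2%). The same 13 windows held 57.7% of WT cisplatin peaks (71 of 123), 47.2% of KO cisplatin peaks (161 of 341) and 33.3% of WT pemetrexed peaks (10 of 30). They were chosen by the KO pemetrexed counts, so that list's own share describes the choice.

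Window by window, KO pemetrexed exceeded KO cisplatin in 24 of the 64 windows (12.7% of all windows of the genome), 15 on the short arm and 9 on the long arm. KO cisplatin exceeded KO pemetrexed in 21 (37.5% of all windows), 5 on the short arm and 16 on the long arm. The excess of KO pemetrexed over KO cisplatin peaks was therefore not shared by all of the chromosome. KO pemetrexed exceeded WT pemetrexed in 37 windows (21.1% of all windows) and fell below it in 4 (15.9%), all on the long arm. KO cisplatin exceeded WT cisplatin in 44 windows (41.3%) and fell below it in 2 (9.99%). WT cisplatin exceeded WT pemetrexed in 31 windows (26.9%), and the reverse held in 8 (14.6%).

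**Figure D3:**
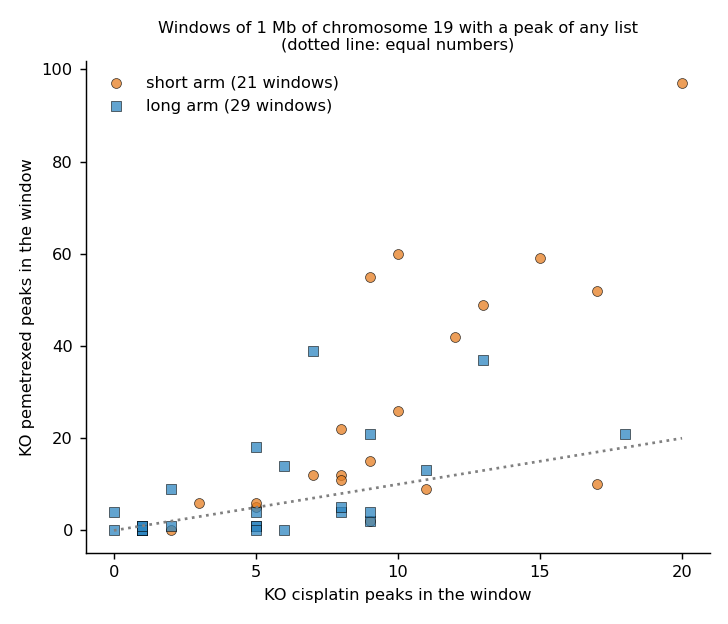
Number of KO pemetrexed peaks (y axis) against KO cisplatin peaks (x axis) in the 50 windows of 1 Mb of chromosome 19 with a peak of any list, 21 on the short arm (circles) and 29 on the long arm (squares). Short arm windows reach 97 KO pemetrexed peaks, and many long arm windows lie below the line of equal numbers.

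Over these 50 windows the counts of 3 lists rose and fell together. Spearman's rho was 0.795 (Pearson's r 0.719) between KO pemetrexed and KO cisplatin, 0.728 (0.765) between WT cisplatin and KO cisplatin, and 0.692 (0.674) between WT cisplatin and KO pemetrexed. The WT pemetrexed counts showed no such pattern, with rho of -0.104 for WT cisplatin, -0.0301 for KO pemetrexed and -0.00577 for KO cisplatin. These values are descriptions of windows of 1 chromosome, which share sequence, mappability and possibly a control library, and the WT pemetrexed counts of 0 to 5 leave little range.

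KO pemetrexed peaks were the widest on the chromosome. Median widths were 580 bp in WT pemetrexed (interquartile range 553 to 603), 672 bp in WT cisplatin (581 to 785), 845 bp in KO cisplatin (706 to 1019) and 1195 bp in KO pemetrexed (912 to 1874). The medians on all other chromosomes were 585, 621, 810 and 1167 bp in the same order, and the order of the lists was the same there. Together the peaks covered 1243 kb in KO pemetrexed, 308 kb in KO cisplatin, 88.02 kb in WT cisplatin and 17.9 kb in WT pemetrexed. The KO over WT ratio of covered bases was 69.5 after pemetrexed and 3.495 after cisplatin.

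**Figure D4:**
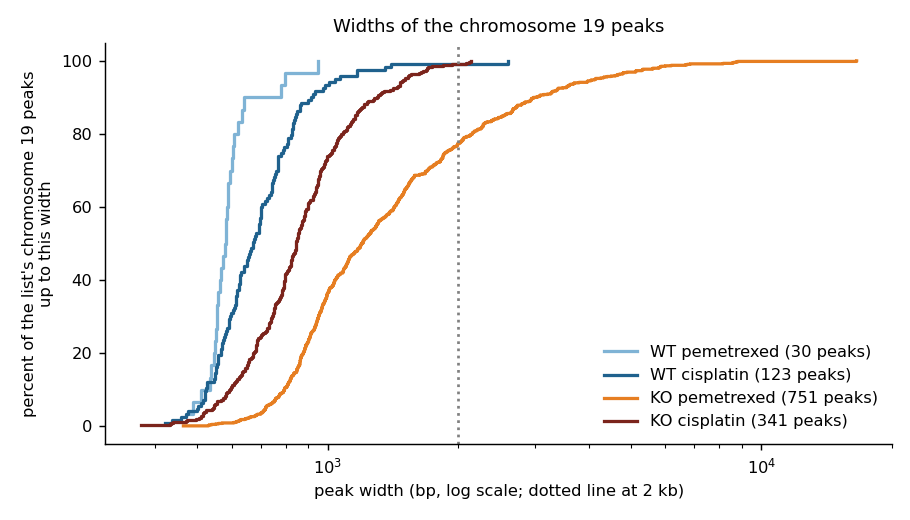
Share of each list's chromosome 19 peaks (y axis, percent) up to a given width (x axis, bp, log scale), with a dotted line at 2 kb. The KO pemetrexed curve lies to the right, with 22.5% of its peaks beyond the line, and the widest WT pemetrexed peak is 949 bp.

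Of the KO pemetrexed peaks on chromosome 19, 22.5% were at least 2 kb wide (169 of 751, interval 19.6 to 25.7%). Over the placed peaks of all chromosomes the shares were 22.6% in KO pemetrexed, 0.986% in KO cisplatin, 0.0554% in WT cisplatin and 0% in WT pemetrexed. On chromosome 19 there were 3 such peaks of 341 in KO cisplatin (0.880%, interval 0.182 to 2.55%), 1 of 123 in WT cisplatin (0.813%, 0.0206 to 4.45%) and 0 of 30 in WT pemetrexed, where 3 counts would be 10% and the exact upper bound is 11.6%. The shares of both KO lists were near those over all chromosomes. The WT cisplatin peak was the only one of 2 kb or more in that list, with 0 of 1682 on the other chromosomes.

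Within chromosome 19 the wide KO pemetrexed peaks followed the dense windows. On the short arm 26% of KO pemetrexed peaks reached 2 kb (143 of 550), and on the long arm 12.9% did (26 of 201). In the 13 windows with at least 20 peaks the share was 27.1% (157 of 580, interval 23.5 to 30.9%) with a median width of 1291 bp. In the other 26 windows with KO pemetrexed peaks it was 7.02% (12 of 171, 3.68 to 11.9%) with a median of 988 bp. The first 5 windows alone held 100 of the 169 wide peaks, and 38 of these were in the window from 1000001 to 2000000.

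The 5 widest KO pemetrexed peaks of the chromosome were 16585 bp (18738924 to 18755509), 8819 bp (19323770 to 19332589), 8740 bp (2307122 to 2315862), 8631 bp (18472272 to 18480903) and 8566 bp (52182671 to 52191237). The first 4 were on the short arm, 3 of them between 18 and 20 Mb. The first 3 met no peak of another list, the fourth met a WT cisplatin and a KO cisplatin peak, and the fifth met a KO cisplatin peak. Over all chromosomes, 6.24% of KO pemetrexed peaks met a KO cisplatin, 1.37% a WT cisplatin and 0.247% a WT pemetrexed peak. In KO cisplatin the 5 widest were 1839 to 2136 bp, the widest at 17832128 to 17834264. Of these 5, 1 met a KO pemetrexed peak (7.32% of KO cisplatin peaks over all chromosomes did). In WT cisplatin they were 1164 to 2601 bp. The 5 widest WT pemetrexed peaks, 633 to 949 bp, were all on the long arm, and none met a peak of another list. Few WT pemetrexed peaks did over all chromosomes: 1.42% met a KO pemetrexed, 1.2% a KO cisplatin and 1.09% a WT cisplatin peak.

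KO pemetrexed peaks lay close together in runs. The median gap from a peak to its nearest neighbour in the same list was 4.33 kb in KO pemetrexed, 24.2 kb in KO cisplatin, 89.4 kb in WT cisplatin and 375 kb in WT pemetrexed. A longer list has shorter gaps at any placement, so these gaps are given with the list lengths above. A neighbour within 10 kb was present for 67.1% of KO pemetrexed peaks (504 of 751), against 52.3% over all chromosomes. The shares were 32.0% in KO cisplatin (109 of 341, 16.1% over all chromosomes), 3.25% in WT cisplatin (4 of 123, 4.16%) and 13.3% in WT pemetrexed (4 of 30, 3.71%). Joining peaks within 10 kb gave 137 runs of 2 or more in KO pemetrexed, 48 in KO cisplatin, 2 in WT cisplatin and 2 in WT pemetrexed.

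The run with the most KO pemetrexed peaks held 14 in 52.8 kb (1857919 to 1910677), and peaks covered 58.3% of its length. The run with the most KO cisplatin peaks, 8 in 31.1 kb (1864926 to 1895995), lay inside it. Here the runs with the most peaks of both KO lists lay at the same place. They were not the longest runs of either list. Neither WT list had a peak there, but WT peaks were sparse. The short arm had 1 WT cisplatin peak per 354 kb and 1 WT pemetrexed peak per 2159 kb, so a run of this length would seldom hold one. The next KO pemetrexed runs held 13 peaks in 73.9 kb (1246946 to 1320818), 13 in 58.0 kb (1472089 to 1530093), 11 in 45.8 kb (649684 to 695443) and 10 in 46.02 kb (912804 to 958823). Those 4 runs held 0, 1, 1 and 0 KO cisplatin peaks and no WT peak, and they too were short beside the spacing of the WT peaks. The second KO cisplatin run, 4 peaks in 32.1 kb at 47410940 to 47443050, lay where KO pemetrexed had none. Of the remaining 3 KO cisplatin runs, each of 3 peaks, the one at 4399415 to 4406769 met 3 KO pemetrexed peaks, and those at 15199564 to 15213477 and 50082693 to 50096563 met none. KO pemetrexed had 1 peak per 43.2 kb on the short arm and 1 per 154 kb on the long arm, more than the length of each of these runs.

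The runs of the WT lists were pairs. In WT cisplatin they lay at 1639242 to 1643116 and 45525330 to 45535851, with no peak of another list in either. In WT pemetrexed they lay at 8428596 to 8430506, with no other peak in it, and at 19371879 to 19379436, where 1 KO pemetrexed peak lay. The pairs spanned 1.91 to 10.5 kb. Even KO pemetrexed, the densest list, had only 1 peak per 43.2 kb on the short arm and 1 per 154 kb on the long arm.

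Direct overlap between lists, counted at 1 bp or more, was limited. The most was shared by the KO lists: 56 KO cisplatin peaks met a KO pemetrexed peak (16.4% of 341, interval 12.7 to 20.8%, against 7.32% over all chromosomes), which is 55 KO pemetrexed peaks (7.32% of 751, against 6.24%). A KO pemetrexed peak was met by 17 WT cisplatin peaks (13.8% of 123, 8.26 to 21.2%, against 3.99%), and these were 2.26% of KO pemetrexed peaks (1.37% over all chromosomes). WT cisplatin and KO cisplatin shared 6 peaks (4.88% of WT, against 1.77%, and 1.76% of KO, against 0.701%). The share of the shorter list was above that of all chromosomes in these 3 pairs. KO peaks were also denser on chromosome 19 (values above), and the part of that density in the overlap was not tested. With a reciprocal overlap of 50% the 3 counts were 24 (of KO pemetrexed), 5 and 4.

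Merging overlapping peaks of the 4 lists gave 1165 separate regions on chromosome 19. Of these, 1091 held a single list (93.6%, against 96.4% of 12088 regions over all chromosomes), 71 held 2, 3 held 3 and 0 held all 4. The 3 regions with 3 lists all joined WT cisplatin, KO pemetrexed and KO cisplatin, with 1 peak of each. At 18472272 to 18480903 a KO pemetrexed peak of 8631 bp covered a WT cisplatin peak of 2601 bp and a KO cisplatin peak of 1012 bp. At 11466773 to 11470158 a KO pemetrexed peak of 3385 bp covered peaks of 656 bp (WT cisplatin) and 732 bp (KO cisplatin). At 54115800 to 54118598, on the long arm, the KO pemetrexed peak was 2798 bp, the WT cisplatin peak 805 bp and the KO cisplatin peak 1228 bp. In each of the 3 regions the KO pemetrexed peak was the widest and enclosed the other peaks.

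Most of the 30 WT pemetrexed peaks met no peak of another list, which also held over all chromosomes. Of them 2 met a KO pemetrexed peak (6.67%, interval 0.818 to 22.1%, against 1.42% over all chromosomes), at 476269 to 476851 and 19378927 to 19379436, both on the short arm. Seen from the KO pemetrexed list these were 0.266% of its peaks (0.247% over all chromosomes). None met a WT cisplatin peak (1.09% over all chromosomes, or 0.554% of WT cisplatin peaks) or a KO cisplatin peak (1.2%, or 0.241% of KO cisplatin peaks), where for 0 of 30 the exact upper bound is 11.6%, and 3 counts would be 10%. No overlap with KO pemetrexed reached 50% of both peaks. The median gap from a WT pemetrexed peak to the nearest other peak was 21.1 kb for KO pemetrexed, 20.1 kb for KO cisplatin and 93.6 kb for WT cisplatin.

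Within 10 kb, 11 of the 30 WT pemetrexed peaks had a KO pemetrexed peak (36.7%, against 6.66% of the 916 placed WT pemetrexed peaks of all chromosomes). A KO cisplatin peak was that near to 7 of them (23.3%, against 8.52%) and a WT cisplatin peak to 3 (10%, against 4.8%). On the short arm, those at 8428596, 8429952 and 8518860 lay 40, 1396 and 7687 bp from a KO pemetrexed peak. Those starting at 16059568, 19109954 and 19371879 lay 6554, 6414 and 1848 bp from one, and the last of these was 9076 bp from a KO cisplatin peak. The peak at 12846391 had a KO pemetrexed peak at 533 bp, a KO cisplatin peak at 3213 bp and a WT cisplatin peak at 5521 bp, the one WT pemetrexed peak with all 3 other lists within 10 kb. The peaks at 15620016 and 16143069 had a KO cisplatin peak at 8111 and 563 bp, and the peak at 19378927, which met a KO pemetrexed peak, had one at 2107 bp. All 11 short arm peaks, with the 2 that met KO pemetrexed among them, lay within 10 kb of a KO peak, as did 3 of the 19 on the long arm (13.5% over all chromosomes). The short arm had 1 KO pemetrexed peak per 43.2 kb and 1 KO cisplatin peak per 119 kb, and the part of this density in the count was not tested.

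On the long arm 5 of the 19 WT pemetrexed peaks had a peak of another list within 10 kb. The peaks at 50066674 and 55021593 lay 3764 and 7123 bp from a KO pemetrexed peak, and the second was 7987 bp from a KO cisplatin peak. The peak at 40396521 lay 7055 bp from a KO cisplatin peak. The peaks at 41173551 and 44081432 lay 2565 and 1355 bp from a WT cisplatin peak. The 4 peaks starting at 34302491, 35530890, 35931887 and 36320661, on the centromere side of the long arm, were more than 1 Mb from any KO pemetrexed peak, the farthest at 3.54 Mb. They lay in the stretch of 5 windows that held no KO pemetrexed and no WT cisplatin peak.

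**Figure D5:**
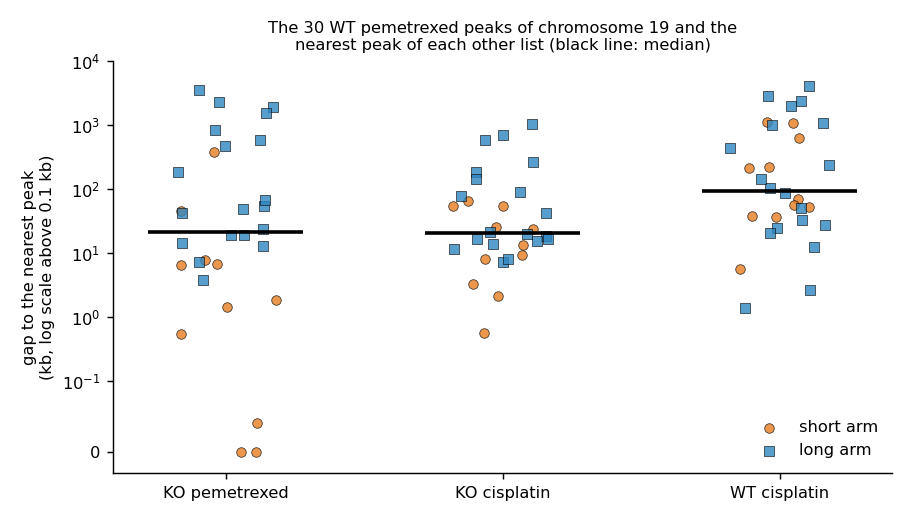
Gap in kb (y axis, log scale above 0.1 kb) from each of the 30 WT pemetrexed peaks of chromosome 19 to the nearest peak of each other list (x axis), with short arm peaks as circles, long arm peaks as squares and the median as a black line. The medians are 21.1 kb for KO pemetrexed, 20.1 kb for KO cisplatin and 93.6 kb for WT cisplatin, and the 4 peaks farthest from KO pemetrexed are on the long arm.

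By peak number, chromosomes 16, 17 and 22, which are also gene-dense, had the same order of lists. So did all chromosomes other than 19 together (886, 1682, 4221 and 4521 peaks). By percent of the list, chromosome 22 kept the order of chromosome 19, and chromosomes 16 and 17 did not. Chromosome 16 took 4.87% of WT pemetrexed and 4.70% of WT cisplatin. Chromosome 17 took 7.91% of WT cisplatin and 6.59% of KO cisplatin. KO pemetrexed peaks per Mb of covered span were 11.8 on chromosome 19, 10.3 on chromosome 22, 8.14 on chromosome 17 and 6.11 on chromosome 16. Chromosome 19 was also the densest of the 4 in WT cisplatin, with 1.94 against 1.82 on chromosome 17. In KO cisplatin chromosome 22 was denser (5.77 against 5.37). In WT pemetrexed chromosomes 22 and 16 were denser (0.673 and 0.508 against 0.473). The KO over WT ratio after pemetrexed was 25.03 on chromosome 19 (17.4 to 37.4), 17.8 on chromosome 17 (12.7 to 25.6), 15.3 on chromosome 22 (10.04 to 24.5) and 12.02 on chromosome 16 (8.86 to 16.7). Chromosome 19 had the highest value of the 4, and its interval overlapped those of chromosomes 17 and 22 but not that of chromosome 16. The share of KO pemetrexed peaks of 2 kb or more was lowest on chromosome 19, 22.5% against 25.3% on chromosome 22, 28.2% on chromosome 17 and 29.8% on chromosome 16. After cisplatin the KO over WT ratios of the 4 chromosomes were 2.10 to 3.52, with chromosome 19 at 2.77.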

How the data were processed

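γH2AX ChIP-seq was done on 6 DLD1 libraries, 1 for each group, and 4 peak lists were analysed. Per the submitters' processing notes, Bowtie (no version named) and MACS 1.4 were used with build hg18. Neither the control library nor the threshold or filters are named in those notes. Per the file headers, the deposited rows hold a chromosome, a start and an end in bp, with no height, score or count, so depth is unknown. Positions are printed as listed, and each start may be off by 1 bp because its counting base is not given. The gene and promoter tables at hand were for another build and were not used, so no peak has a gene or a sequence here.

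Peaks were placed by midpoint in 1 Mb windows, from position 1 to the last covered position of each chromosome. Shares have exact binomial (Clopper-Pearson) intervals, ratios of peak numbers exact conditional binomial intervals, densities exact Poisson intervals, and ratios of ratios exact conditional odds ratio intervals. Python 3.11.15, pandas 2.3.3, numpy 2.4.6 and scipy 1.17.1 were used, and the window, joining and overlap steps were tested on simulated data. Values over all chromosomes include chromosome 19. Peaks on unplaced contigs, 0 of them from chromosome 19, enter only the totals of the lists.

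The members, regions and tests were chosen with earlier results of these data known. Named regions were the 5 widest peaks and 5 fullest runs per list, the fullest windows, regions with 3 lists, the 3 longest empty stretches and WT pemetrexed peaks within 10 kb of another list. The stretches of windows described along the arms were chosen after their counts were seen. Alternatives joined peaks, kept those of at least 600 bp, left out windows, counted bases, shifted windows by 500 kb or changed the overlap. A stricter MACS score or false discovery rate could not be applied, since the files hold neither.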

Additional observations from a re-analysis of the deposited data

Results flagged for a closer look

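The drug ratio of chromosome 19 peak numbers ran in opposite directions in the 2 genotypes. Pemetrexed over cisplatin was 0.244 in WT cells (30 against 123 peaks) and 2.202 in KO cells (751 against 341). The opposite directions were not particular to chromosome 19. Over all other chromosomes together the ratio was 0.527 in WT and 1.07 in KO. It was 0.252 and 2.12 on chromosome 17, 0.529 and 1.98 on chromosome 16, and 0.411 and 1.79 on chromosome 22. Each group had 1 library, so the difference was not tested against replicate spread. With peaks within 100 kb joined, both ratios of chromosome 19 were below 1 (0.293 and 0.545). The ratios given here for other chromosomes count single peaks.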

How the results depend on the processing

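Depth, control and threshold are unknown for every list, so peak numbers of different libraries cannot be set to one depth. No paired analysis was possible because no group holds more than 1 library. Of 72 alternative values for 22 results, 40 stayed within the interval of the value (counts within 1.5 times it), 31 moved and 1 reversed. Leaving out the first 5 Mb was chosen after the data were seen. The cause was not tested for any of these changes. With peaks within 10 kb joined, KO over WT after pemetrexed was 13.7 and pemetrexed over cisplatin in KO 1.37. The KO pemetrexed share on chromosome 19 was then 11.3% and its short arm share 65.1%. With peaks within 100 kb joined, KO over WT was 2.50 after pemetrexed and 1.34 after cisplatin, and pemetrexed over cisplatin in KO reversed to 0.545. The shares on chromosome 19 were then 5.496% (WT cisplatin), 4.98% (KO pemetrexed) and 3.94% (KO cisplatin). The short arm share was 51.7% for KO pemetrexed, below the 54.5% of KO cisplatin. Counting covered bases, KO over WT was 69.5 after pemetrexed and 3.495 after cisplatin, pemetrexed over cisplatin in KO was 4.04, and the KO pemetrexed short arm share was 77.9%. With peaks of at least 600 bp alone, KO over WT was 82.7 after pemetrexed and 3.58 after cisplatin, and pemetrexed over cisplatin in WT was 0.106; this filter leaves 9 WT pemetrexed peaks. Without the first 5 Mb, KO over WT after pemetrexed was 15.3 and pemetrexed over cisplatin in KO 1.64, and the short arm shares were 54.7% (KO pemetrexed), 47.6% (KO cisplatin) and 40.4% (WT cisplatin). A reciprocal overlap of 50% left 0 WT pemetrexed and 5 WT cisplatin peaks meeting KO pemetrexed, and 24 KO pemetrexed peaks meeting KO cisplatin. With edges at most 10 kb apart, WT pemetrexed peaks met 3 (WT cisplatin), 11 (KO pemetrexed) and 7 (KO cisplatin) times, WT cisplatin peaks 53 (KO pemetrexed) and 37 (KO cisplatin) times, and 227 KO pemetrexed peaks met KO cisplatin.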

Other observations

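Joined at gaps of up to 100 kb, the KO pemetrexed peaks of chromosome 19 formed 60 regions, and the fullest held 198 peaks over 2.11 Mb at the short arm tip (264201 to 2373511). That region held 26.4% of the list's chromosome 19 peaks, with 36 peaks of KO cisplatin, 15 of WT cisplatin and 1 of WT pemetrexed in it. The next KO pemetrexed regions held 75 peaks in 1.69 Mb (17913595 to 19601911) and 71 in 1.16 Mb (3951004 to 5109352). The KO cisplatin list formed 110 regions, the fullest with 18 peaks in 0.468 Mb (1769672 to 2237624), which lies inside the first KO pemetrexed region. The fullest regions of the WT lists held 5 peaks for cisplatin and 3 for pemetrexed. These regions were chosen after their values were seen.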
